A study of Mus musculus with 40 samples.

Results

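A set of 8 myeloid transcription factor genes was followed through retina and choroid: *Spi1*, *Irf8*, *Irf5*, *Maf*, *Cebpa*, *Runx1*, *Ikzf1* and *Mef2c*. They are the rows whose Ensembl identifiers carry these mouse symbols, and all 8 were found among 54307 genes. Each gene had a single row, and each had a value in all 40 libraries. On GRCm39 these protein-coding genes lie at these positions: *Spi1* at chr2:90912562-90946101 (plus strand), *Irf8* at chr8:121463096-121485659 (plus strand), *Irf5* at chr6:29526276-29541870 (plus strand), *Maf* at chr8:116409632-116434579 (minus strand), *Cebpa* at chr7:34818718-34821353 (plus strand), *Runx1* at chr16:92398354-92623037 (minus strand), *Ikzf1* at chr11:11634980-11723186 (plus strand) and *Mef2c* at chr13:83652064-83815555 (plus strand).

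The libraries came from 20 mice, with both tissues taken 3 days after laser treatment that placed 6 burns in each eye to induce choroidal neovascularization (CNV). Each of 4 groups held 5 mice: control – PLX, Tgfbr2ΔEC – PLX, control + PLX and Tgfbr2ΔEC + PLX. Tgfbr2ΔEC mice were homozygous for floxed *Tgfbr2* (Tgfbr2 fl/fl) and carried Cdh5-CreERT2, a tamoxifen-inducible Cre recombinase under the promoter of the endothelial gene *Cdh5*, whereas controls were Tgfbr2 fl/fl littermates without Cre. All mice were on a C57BL/6J background, both genotypes received tamoxifen eye drops for 5 days at 6 to 7 weeks of age, and both sexes were used. By their sex-linked transcripts, 3 of 5 mice were male in each control group, 2 of 5 in the Tgfbr2ΔEC – PLX group and 1 of 5 in the Tgfbr2ΔEC + PLX group. PLX5622 (PLX), an inhibitor of the CSF1 receptor that depletes mononuclear phagocytes (MP: microglia, monocytes and macrophages), was given in the chow of the + PLX groups from the first tamoxifen dose to the end. The choroid samples held the central, lesioned part of the tissue, and each library was made from whole tissue, in which fewer cells of a type and less RNA per cell cannot be told apart.

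Transcription factors of the myeloid lineage act in layers. PU.1, encoded by *Spi1*, is an ETS factor without which macrophages do not form, *Runx1* acts upstream of it in blood stem cells, and C/EBPα (*Cebpa*) directs precursors toward granulocytes and monocytes. IRF8 pairs with PU.1 on composite sites in monocytes and microglia, IRF5 drives inflammatory cytokine genes downstream of Toll-like receptors, c-Maf (*Maf*) marks resident macrophages, Ikaros (*Ikzf1*) is a zinc finger factor of all leukocytes, and MEF2C serves microglia but also muscle, neurons and endothelium.

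Values are the deposited normalized counts, which are scaled for depth and not for gene length. Depth was between 20940403 and 30421581 approximate reads in retina and between 21537996 and 28331348 in choroid, and 3 reads, taken as the floor of detection for counting error alone, corresponded to 2.235 to 3.375 and 2.7 to 3.57 normalized counts. *Csf1r*, which encodes the receptor that PLX inhibits, fell to 10.9% of its level in retina and to 49.3% in choroid. *Tgfbr2* totals of the genotypes overlapped in each tissue and diet, for example 9836 to 10849 normalized counts in control – PLX and 8729 to 11304 in Tgfbr2ΔEC – PLX choroids, so whole-tissue totals did not separate the genotypes. The choroids of Tgfbr2ΔEC – PLX mice held more transcripts of 12 neural retina markers (summed 44563 to 130262 normalized counts) than those of control – PLX mice (2726 to 25183), and 1 control + PLX choroid, that of mouse 15, stood apart at 126065 against 2312 to 16430 in the other 4 of its group.

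Starts of 6 of the 8 genes, all but *Spi1* and *Maf*, were found in RefSeq on build GRCm38.p6, which is an earlier build than the GRCm39 used for the counts. Shown are the first listed starts of 4 genes that fell together under PLX in both tissues and of *Runx1*, which was not called in either, each from 250 bases before the start to 50 after it. Capitals mark matches to the core promoter box TATAAA, the ETS core CGGAAG, the Runx site TGTGGT or the E-box CACGTG, searched on both strands.
Irf8: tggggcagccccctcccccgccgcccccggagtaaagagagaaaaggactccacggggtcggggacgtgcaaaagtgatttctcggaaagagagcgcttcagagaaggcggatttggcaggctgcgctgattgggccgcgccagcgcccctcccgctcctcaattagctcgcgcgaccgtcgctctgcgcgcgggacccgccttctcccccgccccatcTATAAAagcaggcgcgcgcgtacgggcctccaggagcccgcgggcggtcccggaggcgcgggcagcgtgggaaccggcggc
Cebpa: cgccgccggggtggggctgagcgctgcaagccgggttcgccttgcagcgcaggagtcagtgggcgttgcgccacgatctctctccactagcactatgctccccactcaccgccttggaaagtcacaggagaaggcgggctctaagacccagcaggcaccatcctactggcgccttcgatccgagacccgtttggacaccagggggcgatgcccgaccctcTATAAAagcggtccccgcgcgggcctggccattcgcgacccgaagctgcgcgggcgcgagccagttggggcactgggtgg
Irf5: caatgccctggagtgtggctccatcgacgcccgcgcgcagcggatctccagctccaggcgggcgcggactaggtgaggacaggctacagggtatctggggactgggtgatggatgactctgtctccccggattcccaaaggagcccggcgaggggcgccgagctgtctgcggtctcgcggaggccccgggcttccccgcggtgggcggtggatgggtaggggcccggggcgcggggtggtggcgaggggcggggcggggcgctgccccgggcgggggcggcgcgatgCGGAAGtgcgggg
Ikzf1: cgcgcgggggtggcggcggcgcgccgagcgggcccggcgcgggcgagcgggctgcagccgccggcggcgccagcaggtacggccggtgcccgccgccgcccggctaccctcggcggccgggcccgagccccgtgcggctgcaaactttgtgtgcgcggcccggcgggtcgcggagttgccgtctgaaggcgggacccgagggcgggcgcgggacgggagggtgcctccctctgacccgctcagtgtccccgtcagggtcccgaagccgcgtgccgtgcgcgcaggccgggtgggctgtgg
Runx1: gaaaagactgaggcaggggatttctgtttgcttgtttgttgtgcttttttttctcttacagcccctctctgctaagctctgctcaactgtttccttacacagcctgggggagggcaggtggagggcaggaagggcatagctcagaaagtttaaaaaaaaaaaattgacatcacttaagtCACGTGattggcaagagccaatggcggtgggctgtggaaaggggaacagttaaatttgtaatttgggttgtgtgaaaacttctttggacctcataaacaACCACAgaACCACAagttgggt
These windows lie at chr8:120736108-120736407 (*Irf8*, plus strand), chr7:35119043-35119342 (*Cebpa*, plus strand), chr6:29526375-29526674 (*Irf5*, plus strand), chr11:11685675-11685974 (*Ikzf1*, plus strand) and chr16:92826025-92826324 (*Runx1*, minus strand).

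*Irf8* and *Cebpa* each held a TATAAA, beginning 31 and 30 bases before the start, a motif that 13.6% of all 32851 promoters of this length hold. *Irf5* held 1 CGGAAG beginning at base 38 of the transcript (16.9% of all promoters). The *Runx1* window held TGTGGT on its minus strand at bases 29 and 37 of the transcript, printed there as ACCACA (16.8% of all promoters), and CACGTG 71 bases before the start (7.15%). The *Ikzf1* window held no match to any motif searched. *Mef2c*, not shown and also not called under PLX in either tissue, held CGGAAG at -57 and TATAAA at -107 relative to its first start. Its second start held TATAAA at -22, and all of these matches were on the minus strand. The PU.1 box GAGGAAGT (3.2% of all promoters), the ETS-IRF composite element (2.72%) and the core of the interferon-stimulated response element (3.44%) were also searched and did not occur in the listed starts of the 6 genes. The first starts of *Ikzf1* (81.3% G and C), *Irf5* (74.7%), *Irf8* (70%) and *Cebpa* (67.3%) were richer in G and C than the median promoter (52.7%), while those of *Runx1* (45%) and *Mef2c* (35.7%) were poorer. Later listed starts differed from these, at 69% for *Runx1*, 54.7% for *Irf8*, 49% for *Ikzf1*, and 47% and 48.3% for *Mef2c*.

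Without PLX, 7 of the 8 genes were higher in choroid than in retina. In the joint fit of both tissues 75.1% of 24317 genes differed and 37.7% were higher in choroid. The retina of the 10 mice without PLX held a mean of 36.4 ± 18.1 normalized counts of *Runx1* (SD, n = 10) and the choroid 1439 ± 242, a ratio of 39.6. The ratio was 19.8 for *Spi1*, 17.1 for *Cebpa*, 11.1 for *Ikzf1*, 9.80 for *Irf8*, 7.84 for *Irf5* and 4.92 for *Maf*. For these 7 genes every choroid lay above every retina, and the share of all genes separated in this way was not counted. *Mef2c* had a ratio of 0.915, with a log2 difference of -0.14 (95% interval -0.45 to 0.18, limma adjusted p = 0.431).

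Per kilobase of the canonical transcript, the order of the levels differed between the tissues. In retina without PLX *Mef2c* was highest at 414 ± 98.0 normalized counts per kb (SD, n = 10), followed by *Maf* at 137 ± 10.3. Then came *Irf5* (38.5), *Cebpa* (36.1), *Spi1* (22.6) and *Irf8* (19.98), whose neighbours in this order differed by less than the larger of their SDs, and at the bottom *Ikzf1* (6.44) and *Runx1* (6.21), which also differed by less than that. In choroid without PLX *Maf* (675 ± 63.9) and *Cebpa* (618 ± 52.4) led and differed by less than the larger SD, *Spi1* (448), *Mef2c* (378) and *Irf5* (302) followed, each within the larger SD of the next, and *Runx1* (246), *Irf8* (196) and *Ikzf1* (71.4) came last and apart.

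The first comparison asked how the 8 genes responded to PLX over both genotypes. In retina 5 of the 8 fell, against 1.08% of all 23243 genes tested: *Ikzf1*, whose PLX mean was under the floor, to at most 7.58% of its level, *Spi1* to 6.93%, and *Irf5*, *Cebpa* and *Irf8* to between 27.5% and 45.2%. *Runx1*, *Maf* and *Mef2c* were not called. The median log2 difference of the 8 was -1.15, and that of all genes tested was 0.003.

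*Spi1* in retina was 98.1, 24.3, 43.3, 6.84 and 42.8 normalized counts in the control – PLX mice and 102, 44.2, 31.96, 24.1 and 41.4 in the Tgfbr2ΔEC – PLX mice. Under PLX it was 0.98, 12.7, 0, 11.8 and 0 in controls and 0, 6.30, 0, 0 and 0 in Tgfbr2ΔEC mice. The lowest mouse without PLX, control mouse 4 at 6.84, lay below 2 mice with PLX, and 7 of the 10 PLX retinas were at or under the floor. The fitted difference was -4.12 (SE 0.57) on the log2(normalized count + 1) scale, with a limma adjusted p of 0.000100 and an exact permutation p of 9.45e-05.

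*Ikzf1* in retina was 48.3, 19.6, 16.4, 21.2 and 137 normalized counts in control – PLX and 61.1, 21.4, 26.8, 20.4 and 11.4 in Tgfbr2ΔEC – PLX mice. With PLX, 8 of 10 retinas had 0, control mouse 15 had 4.54 and Tgfbr2ΔEC mouse 17 had 2.14. All 10 PLX mice lay below all 10 without PLX, which was so for 0.422% of all genes tested in retina and for no other of the 8 genes. Set against the floor, the level was at least 13.2-fold lower with PLX. The fitted difference was -4.49 (SE 0.43, limma adjusted p = 5.74e-07), and the exact permutation p of 3.15e-05 is the smallest that the 63504 relabellings can give.

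The IRF genes and *Cebpa* kept a larger share. *Irf5* in retina ranged from 31.02 to 199 with a median of 66.4 normalized counts without PLX and from 4.87 to 62.7 with a median of 17.9 with PLX. The change of -1.93 (SE 0.40) passed the test (limma adjusted p = 0.0131), although the ranges overlapped. *Irf8* ranged from 52.7 to 170 (median 92.7) without PLX and from 27.05 to 71.8 (median 44.0) with PLX, a difference of -1.07 (SE 0.23, limma adjusted p = 0.0205). This call was lost without control mouse 1 (adjusted p = 0.0515) or mouse 5 (adjusted p = 0.053), which held the highest *Irf8* values, 162 and 170. *Cebpa* ranged from 43.8 to 128 (median 94.9) without PLX and from 22.7 to 64.8 (median 37.8) with PLX, a difference of -1.23 (SE 0.21, limma adjusted p = 0.00150).

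The other 3 genes moved less in retina. *Runx1* was 19.2 to 81.2 normalized counts (median 32.96) without PLX and 4.01 to 32.9 (median 22.3) with PLX. Its difference of -0.71 (SE 0.31) had an exact permutation p of 0.0284 but a limma adjusted p of 0.697, and was not called. *Maf* stayed within 489 to 624 without and 442 to 585 with PLX, and its log2 difference of -0.08 had a 95% interval of -0.22 to 0.06. *Mef2c* stood at 1873 to 4186 without and 1613 to 3956 with PLX, and its difference of 0.07 had an interval of -0.24 to 0.38.

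**Figure D1:**
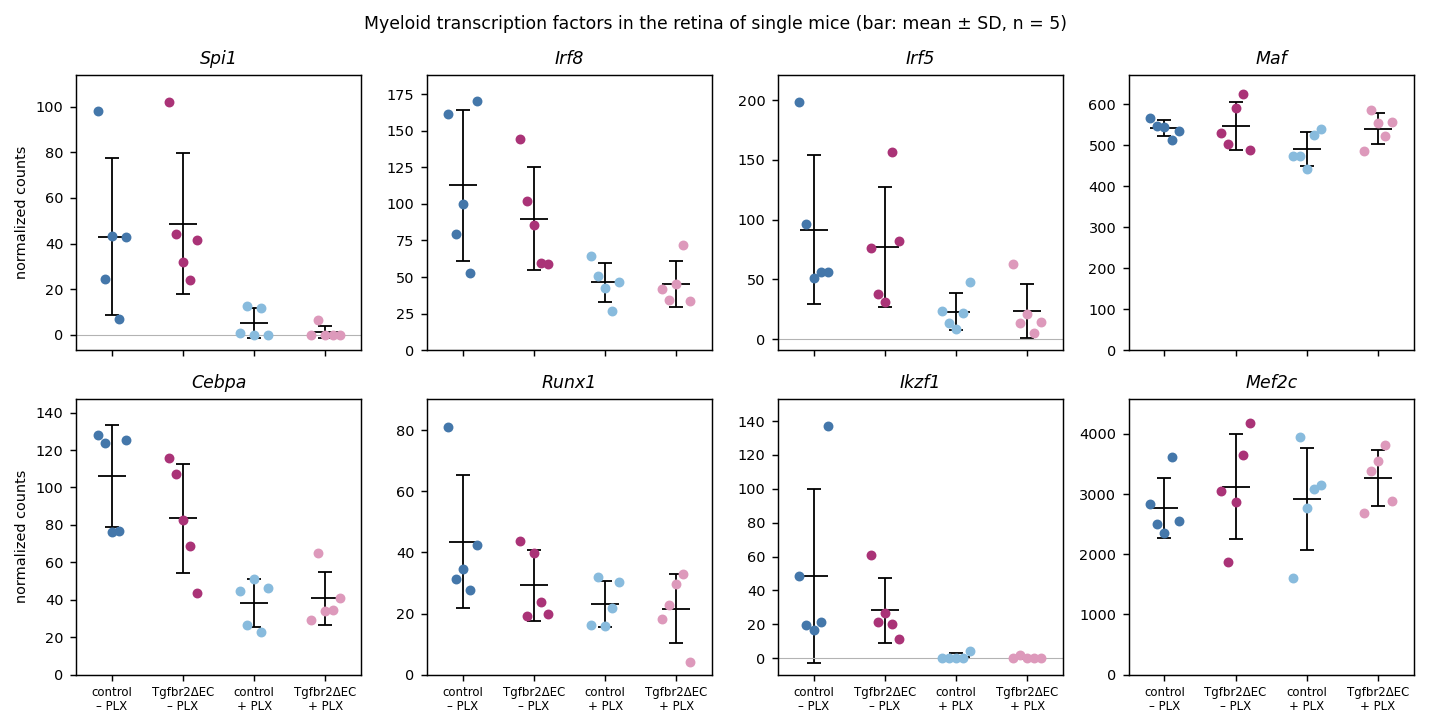
Normalized counts (vertical axis, one scale per gene) of the 8 transcription factor genes in the retinas of single mice by group; points are mice and bars are the mean ± SD of 5 mice. *Ikzf1* was at 0 in 8 of the 10 PLX retinas and *Spi1* at 0 in 6, while *Maf* and *Mef2c* overlapped widely between the diets.

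In choroid 6 of the 8 genes fell under PLX, against 5.06% of all 23619 genes tested. *Spi1* fell furthest, to 27.8% of its level, *Irf5* and *Ikzf1* to 34.4%, *Irf8* to 45.6%, *Cebpa* to 49.2% and *Maf* to 57.7%, whereas *Runx1* kept 99.9%. *Spi1*, *Irf5*, *Maf* and *Cebpa* were below in every PLX mouse, which was so for 1.75% of all genes tested in choroid. The median log2 difference of the 8 was -1.11, against 0.0005 over all genes tested.

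*Spi1* in choroid was 904, 964, 985, 859 and 1048 normalized counts in control – PLX and 860, 767, 974, 1103 and 646 in Tgfbr2ΔEC – PLX mice. With PLX it was 237, 394, 333, 260 and 119 in controls and 192, 362, 268, 147 and 216 in Tgfbr2ΔEC mice. The highest PLX choroid thus lay well below the lowest without PLX, and no choroid approached the floor. The difference was -1.92 (SE 0.18), with a limma adjusted p of 1.40e-07 and an exact permutation p of 3.15e-05.

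*Irf5* ranged from 545 to 774 normalized counts (median 670) without PLX and from 142 to 370 (median 217) with PLX, a difference of -1.57 (SE 0.13, limma adjusted p = 2.08e-08). *Cebpa* ranged from 1393 to 1787 (median 1642) without and from 601 to 1141 (median 731) with PLX, a difference of -1.048 (SE 0.10, limma adjusted p = 1.34e-07). *Maf*, which was not called in retina, was 2396 to 3116 (median 2600) without and 1377 to 1847 (median 1524) with PLX. Its difference of -0.79 (SE 0.06) was the smallest of the 6, with the smallest SE and the lowest adjusted p of the 8 (7.53e-09, limma).

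*Irf8* and *Ikzf1* fell with an overlap of the diets. *Irf8* was 727 to 1216 (median 992) without PLX and 291 to 759 (median 416) with PLX, and 1 PLX mouse, Tgfbr2ΔEC mouse 17 at 759, lay above the lowest mouse without PLX. The difference was -1.17 (SE 0.16, limma adjusted p = 3.28e-05). *Ikzf1* was 322 to 577 (median 402) without PLX and 94.2 to 353 (median 119) with PLX, and again 1 mouse, Tgfbr2ΔEC mouse 18 at 353, reached the range without PLX. Its difference was -1.64 (SE 0.20, limma adjusted p = 7.12e-06).

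*Runx1*, known also from other cell types than blood, was 1085 to 1825 normalized counts (median 1464) without PLX and 883 to 1806 (median 1345) with PLX in choroid. Its difference of -0.01 had a 95% interval of -0.28 to 0.25, so that falls as large as those of the 6 called genes lay outside the interval. *Mef2c* was 1792 to 4028 (median 2676) without and 1517 to 3138 (median 2271) with PLX, and its difference of -0.23 (95% interval -0.54 to 0.08) had a limma adjusted p of 0.434.

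**Figure D2:**
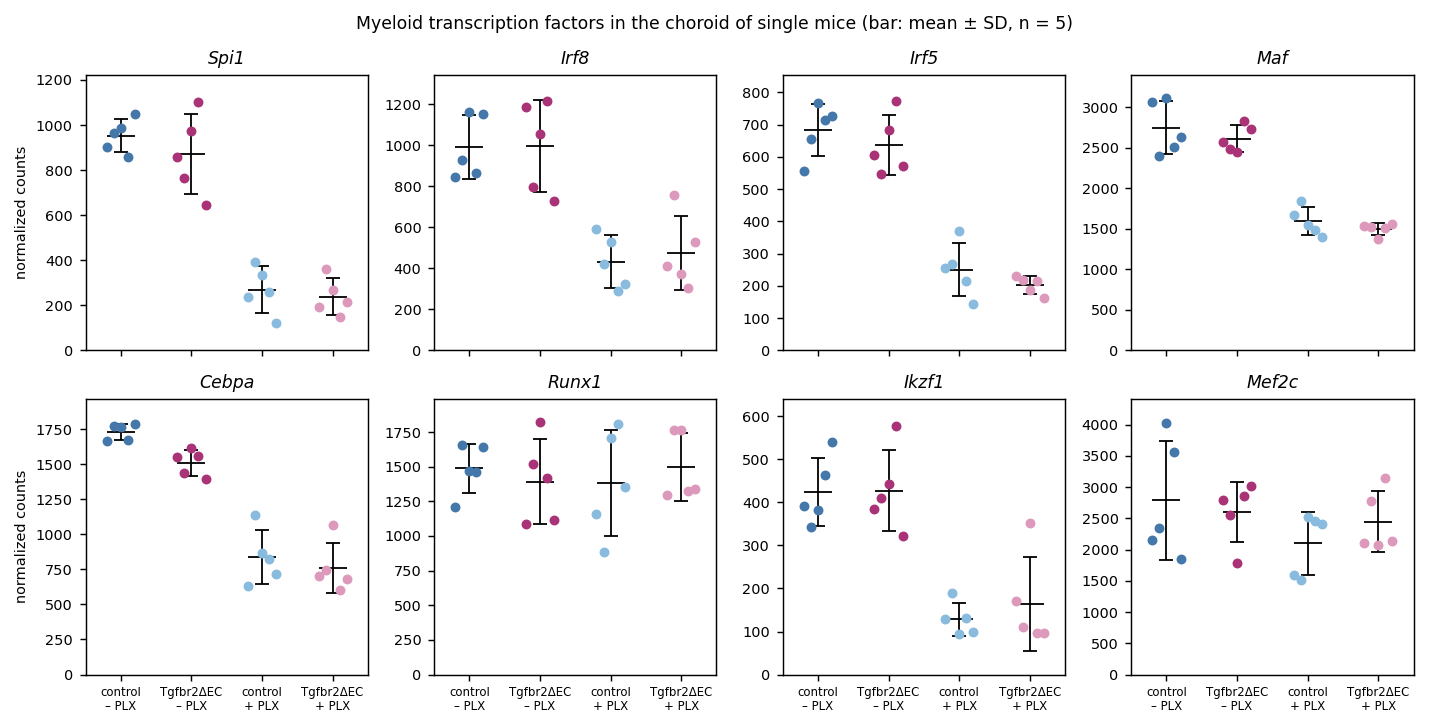
Normalized counts (vertical axis, one scale per gene) of the 8 transcription factor genes in the choroids of single mice by group; points are mice and bars are the mean ± SD of 5 mice. *Spi1*, *Irf5*, *Maf* and *Cebpa* were separated by diet without overlap, and *Runx1* was not.

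The neural retina markers in the choroids differed with diet in the Tgfbr2ΔEC mice, with a median log2 difference under PLX of -2.59 and 3 of 12 called lower. In control mice the median was 0.12, with none called by limma and none at an unadjusted p under 0.05. Over both genotypes it was -1.16 with 1 of 12 called lower, and no marker was at 0 throughout a group. With a score of these markers in the fit 6 of the 8 genes were again called lower, with differences from -2.11 for *Spi1* to -0.83 for *Maf*. Endothelial markers rose under PLX in choroid, 6 of 10 being called (2.07% of all genes were called higher), with summed levels of 28017 to 34287 normalized counts in the 10 mice without PLX and 30928 to 39622 with PLX. Of 8 mural cell markers *Rgs5* (0.45, limma adjusted p = 0.000670) and *Myh11* (0.74, limma adjusted p = 0.00362) rose there, with summed levels of 40153 to 55380 without and 51014 to 70359 with PLX. The part of endothelial and mural cells in the differences of the 8 genes was not tested.

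The PLX effect was also tested within each genotype. In choroid 6 of 8 were called lower in controls (3.15% of all genes were) and 6 in Tgfbr2ΔEC mice (3.5% of all genes), with differences for *Spi1* of -1.92 and -1.91. With the neural retina markers in the fit, 5 remained in Tgfbr2ΔEC choroids, where *Ikzf1* had a difference of -1.40 in place of -1.54 and an adjusted p of 0.0559, and the genes called over all 23619 went from 958 to 506. In retina 2 of 8 were called lower in controls, *Ikzf1* (-4.64) and *Cebpa* (-1.47), against 0.727% of all genes called lower. In Tgfbr2ΔEC retinas 2 were called, *Ikzf1* (-4.33) and *Spi1* (-4.88), against 0.512%. *Spi1* in control retinas had a difference of -3.35 with a limma adjusted p of 0.0591, and it passed when mouse 4, 12, 14 or 17 was left out (adjusted p = 0.0167 to 0.0326). The call of *Cebpa* there was lost without mouse 1, 5, 12 or 14 (adjusted p = 0.0546 to 0.0578), and *Irf8* was called without mouse 4 (adjusted p = 0.0334).

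**Figure D3:**
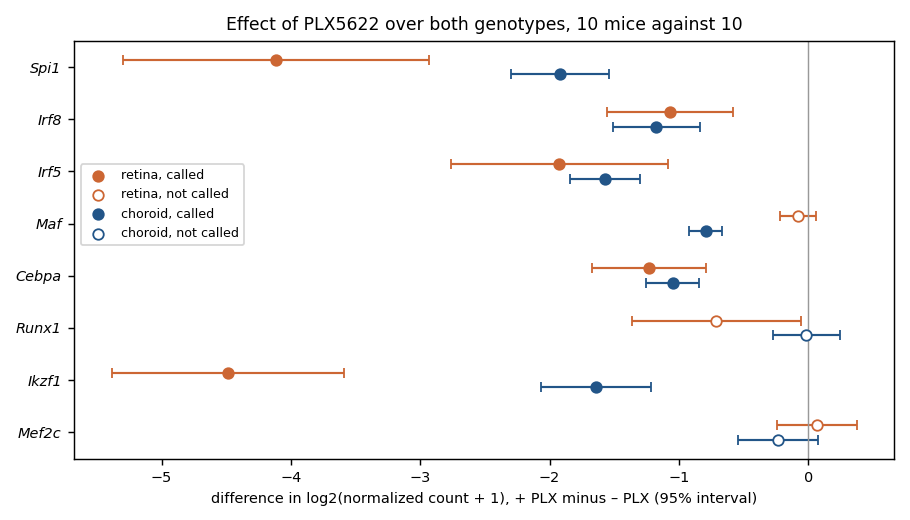
Difference in log2(normalized count + 1) between 10 mice with and 10 without PLX (horizontal axis) for each gene in retina and choroid, with 95% intervals; filled points passed the limma test. The retina estimates of *Spi1* (-4.12) and *Ikzf1* (-4.49) lay furthest from 0, and *Maf* was called in choroid alone.

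The difference between the tissues was tested itself, in the joint fit of all 40 libraries, where 1.37% of genes were called. Of the 8, *Maf* fell more in choroid (choroid minus retina -0.71, SE 0.09, limma adjusted p = 4.12e-07) and *Ikzf1* fell more in retina (2.84, SE 0.49, limma adjusted p = 0.000280). *Spi1*, with a difference of 2.20 (SE 0.62), did not pass (limma adjusted p = 0.0710), but passed when the mouse was fitted as a block (adjusted p = 0.0385) or when mouse 4, 12, 14 or 17 was left out (adjusted p = 0.0243 to 0.0318). For *Ikzf1* the size rested on retinas at 0, and with a pseudocount of 5 in place of 1 the difference was 1.03 and not called (adjusted p = 0.232). *Irf8* (-0.11, 95% interval -0.70 to 0.48), *Irf5* (0.35, -0.54 to 1.25), *Cebpa* (0.19, -0.28 to 0.66), *Runx1* (0.70, 0.01 to 1.38) and *Mef2c* (-0.30, -0.75 to 0.15) were not called. The ratio of choroid to retina was 19.8 without and 79.5 with PLX for *Spi1*, and 4.92 without and 2.99 with PLX for *Maf*. The 79.5 is imprecise, since it divides by a PLX retina mean of 3.18, near the mean floor of 2.91, with 6 of 10 retinas at 0.

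The second comparison asked whether endothelial deletion of *Tgfbr2* changed the 8 genes. None was called in either tissue or diet by limma, and none had an unadjusted limma p under 0.05. Of all genes tested 0 were called in retina in either diet, and 0.00423% in choroid in each diet, while 3.26% (retina, – PLX), 2.71% (retina, + PLX), 9.25% (choroid, – PLX) and 3.76% (choroid, + PLX) had an unadjusted p under 0.05. In a fit of the 10 choroid libraries without PLX alone, 303 of 23632 genes were called in place of 1, and again 0 of the 8. In choroid without PLX the 95% intervals of the log2 difference ran from -0.68 to 0.38 for *Spi1*, from -0.49 to 0.47 for *Irf8*, from -0.25 to 0.12 for *Maf* and from -0.60 to 0.60 for *Ikzf1*. In retina the intervals of *Spi1* were wider, at -1.26 to 2.10 in mice without PLX and -2.79 to 0.56 in mice with it, while that of *Maf* without PLX was -0.19 to 0.21 and that of *Mef2c* -0.30 to 0.58.

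*Cebpa* in choroid without PLX was the 1 case in these comparisons in which the genotypes did not overlap. It was 1668, 1773, 1762, 1675 and 1787 normalized counts in controls and 1548, 1440, 1616, 1556 and 1393 in Tgfbr2ΔEC mice. All 5 Tgfbr2ΔEC mice lay below all 5 controls, as for 0.436% of all genes tested there, while for 2.38% they lay all above. The difference for *Cebpa* was -0.20 (95% interval -0.49 to 0.09). The exact permutation p was 0.00794, the smallest that 5 against 5 mice allow, whereas the limma adjusted p was 0.763. Fitted beside the neural retina score, the difference was -0.22 (limma adjusted p = 1), and beside a score of sex-linked genes it was -0.19 (limma adjusted p = 0.825). Under PLX the genotypes overlapped, at 631 to 1141 in controls and 601 to 1067 in Tgfbr2ΔEC mice.

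The interaction of genotype and diet was called for 0 of the 8 genes in both tissues by limma, with no unadjusted p under 0.05, as against 2.44% of all genes in retina and 6.57% in choroid at that unadjusted level. Its 95% interval in choroid was narrowest for *Maf* (-0.27 to 0.24) and widest for *Ikzf1* (-0.64 to 1.05).

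**Figure D4:**
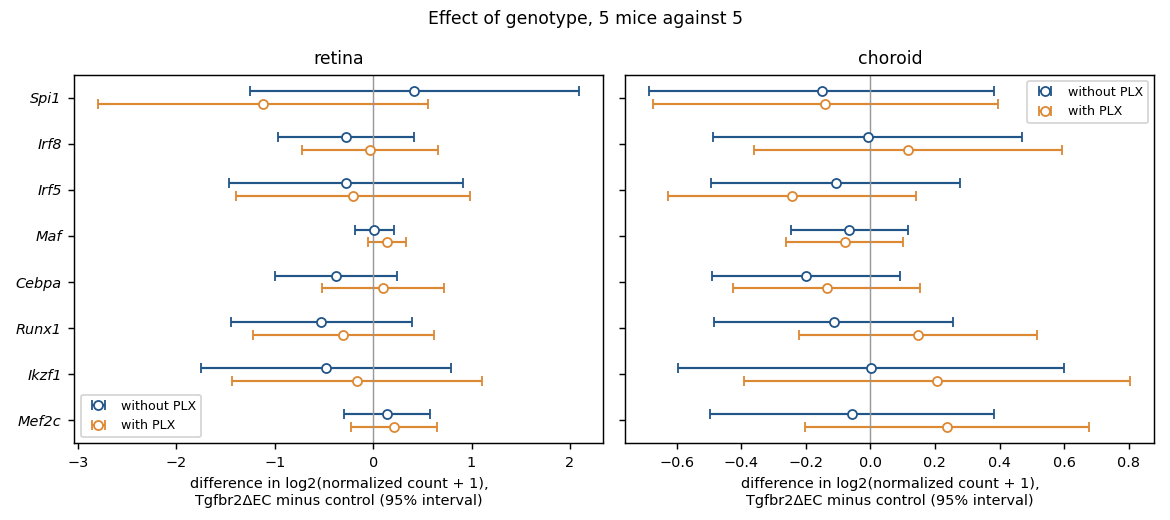
Difference in log2(normalized count + 1) between 5 Tgfbr2ΔEC and 5 control mice (horizontal axis, one scale per tissue) for each gene, without and with PLX, with 95% intervals. Every interval of the 8 genes includes 0 in both tissues and diets, and those of *Spi1* in retina are the widest.

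The families of the 8 genes were followed in the fit over both genotypes. For these and the lists that follow, 1.08% of all genes tested were called lower in retina. In choroid 5.06% were called lower and 2.07% higher. Of 9 interferon regulatory factor genes, *Irf5* and *Irf8* fell in retina and choroid, and *Irf7*, an amplifier of type I interferon, fell in choroid (-0.84, SE 0.24, limma adjusted p = 0.0351). *Irf4* had -0.74 in choroid (adjusted p = 0.117), and *Irf1*, *Irf2*, *Irf3* and *Irf9* were not called in either tissue. *Irf3* stood at 1351 normalized counts without and 1446 with PLX in retina.

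Of 7 Maf factors 2 fell in choroid, *Maf* among them, and limma called none in retina, with 1 at an unadjusted p under 0.05. The photoreceptor factor *Nrl* of this family, at 38222 normalized counts in retina without PLX, was not called in either tissue. Of 6 C/EBP genes *Cebpa* was the called one, and *Cebpb* had -0.32 in retina and -0.27 in choroid. Of the Runx genes *Runx3*, a factor of lymphocytes and dendritic cells, fell in choroid (-1.31, SE 0.29, limma adjusted p = 0.00512), while *Runx2* (0.02) and the partner subunit *Cbfb* (-0.10) were not called there. *Ikzf1* was the called Ikaros gene, and *Ikzf2* kept 90.2% of its level in retina and 98.8% in choroid. No Mef2 gene was called by limma in either tissue, and over both genotypes none of the 4 had an unadjusted p under 0.05.

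Among 12 ETS factors, *Spi1* was the called one in retina. In choroid *Spic* (-1.09, SE 0.26, limma adjusted p = 0.0113), a factor of red pulp macrophages, and *Elf4* (-0.38, SE 0.07, limma adjusted p = 0.00178) fell with it. The endothelial ETS factor *Erg* (0.28, SE 0.07, limma adjusted p = 0.0104) and *Ets1* (0.20, SE 0.05, limma adjusted p = 0.0202) rose there. *Erg* also counts among the endothelial markers.

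Of 35 other macrophage transcription factors, 34 were tested in retina and 2 fell: *Sall1*, a factor of microglia, to 20.9% of its level (-2.28, SE 0.27, limma adjusted p = 1.04e-05) and *Lyl1*, of blood progenitors and macrophages (-2.09, SE 0.27, limma adjusted p = 4.83e-05). The median of the 34 was -0.07, and 1.08% of all genes tested in retina fell. In choroid 11 of 35 fell and 2 rose, against 5.06% and 2.07% of all genes tested, with a median of -0.17. *Lyl1* fell furthest of these (-1.60, SE 0.12, limma adjusted p = 3.67e-09), and *Hhex* (-0.85, SE 0.10) and *Rel* (-0.73, SE 0.10) had the next lowest p-values. *Bhlhe41* (0.22, SE 0.06) and *Klf4* (0.34, SE 0.10) rose.

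Most genes that textbooks name as targets of PU.1 fell in both tissues. In retina 10 of 12 fell, with a median of -3.42, and *Tyrobp*, an adaptor of microglial receptors, kept at most 2.77% and the integrin gene *Itgam* at most 1.17%, their PLX means being under the floor. *Csf2ra* (-0.02) and *Tlr4* (-0.67) were not called there. In choroid 11 of 12 fell, with a median of -1.61, *Tlr4* (-0.20) being the exception. *Csf2ra*, which kept 98.8% in retina, kept 44.4% in choroid.

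MP markers fell in both tissues. In retina 17 of 17 fell and kept a median of 1.34% of their level as listed, or of 3.18% with the 10 markers whose PLX mean was under the floor set at it, and their summed level was 2810 to 6894 normalized counts in the mice without PLX and 428 to 617 with PLX. *Mrc1* was at 0 in all 5 control + PLX retinas. In choroid 16 of 17 fell and kept a median of 27.04%, with *Mrc1* keeping the least, and *Tmem119* was the exception at 102.7%. The summed level there was 63680 to 76897 without PLX and 18100 to 30372 with PLX. Beside these markers, the 8 transcription factors kept a median of 43.5% in retina and 47.4% in choroid.

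**Figure D5:**
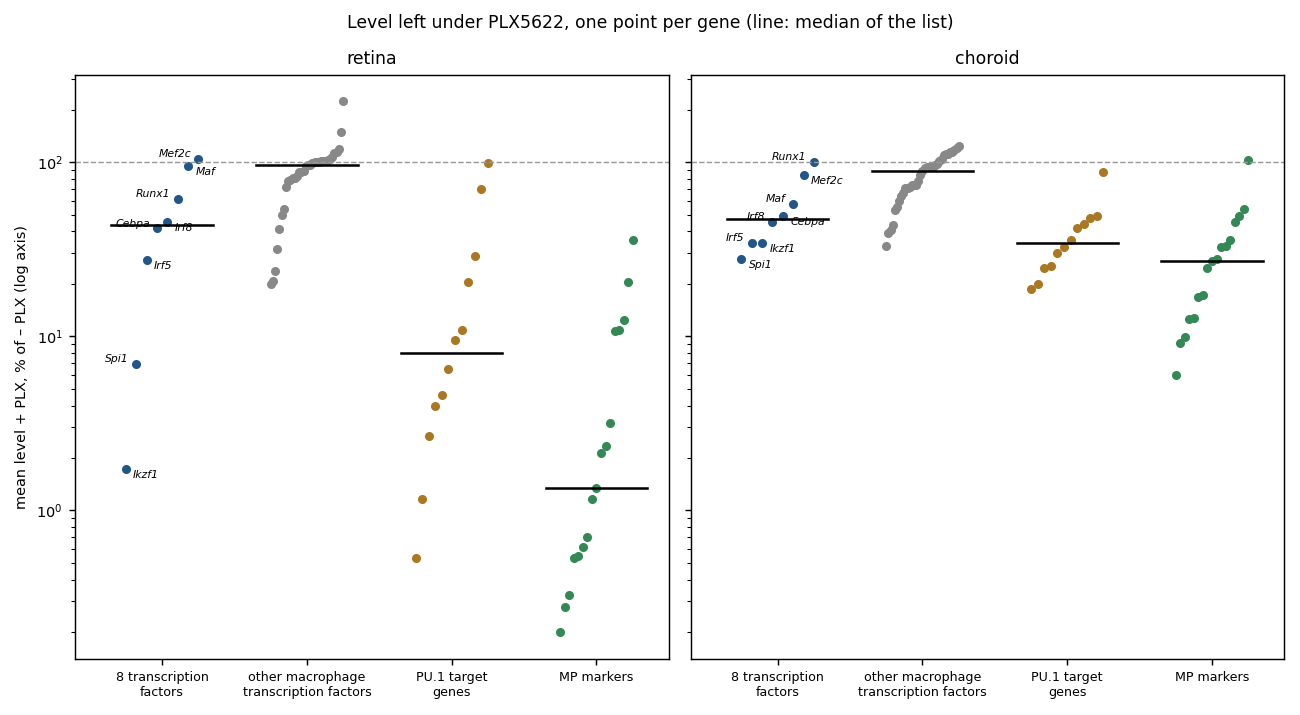
Mean level under PLX as a percentage of the mean without PLX (vertical log axis, 10 mice each) for the 8 transcription factors, other macrophage transcription factors, PU.1 target genes and MP markers; each point is a gene and the line is the median of its list. *Ikzf1* (1.74% as listed) and *Spi1* (6.93%) lie lowest of the 8 factors in retina, and *Irf5* (27.5%) comes next; the PLX means of *Ikzf1*, of 10 MP markers, of 5 PU.1 target genes and of 3 other factors there are under the floor of 3 reads, so their points show no order among themselves.

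Markers of other cells gave the following counts. Dendritic cell markers fell in 2 of 8 in retina (*Siglech* and *Itgax*, which microglia and macrophages also express) and in 5 of 8 in choroid, with summed levels of 1430 to 2206 normalized counts without and 990 to 1485 with PLX. Of 8 B and T cell markers *Cd4* and *Cd79b* fell in choroid, where the summed level was 329 to 526 without and 103 to 313 with PLX, and of the 6 tested in retina limma called none, with 1 at an unadjusted p under 0.05. Neutrophil markers, of which 3 of 9 were tested in retina and 6 in choroid, were not called by limma in either, with 1 at an unadjusted p under 0.05 in each. Fibroblast markers, of which 7 of 8 were tested in retina, had a median of -0.94 there, with none called by limma and 1 at an unadjusted p under 0.05, and in choroid 1 of 8, *Dcn* (0.45), rose. Also in choroid, *Kcnj10* (-0.52) and *Apoe* (-0.72; a gene that macrophages express too) fell among 8 Müller glia and astrocyte markers. There *Kit* (0.42) rose among 7 mast cell markers. The 8 markers of inner retinal neurons had a median of -1.12 in choroid, with 5 at an unadjusted p under 0.05, and the 1 that was called, *Rbpms* (0.33), rose. The 8 skeletal muscle markers summed to between 19528 and 166802 normalized counts in single choroids. The part of any of these cells in the levels of *Irf8*, *Irf5*, *Cebpa*, *Ikzf1*, *Spi1* or *Mef2c* was not tested.

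The genes closest in pattern to each factor were found from centred log2 values, by the root mean square (RMS) difference over the 20 libraries of a tissue. In choroid *Spi1* was closest to *Cd53* (RMS 0.218, against an RMS of 1.04 of *Spi1* about its own mean), *Nckap1l* and *Casp1*. *Irf5* was closest to *Unc93b1* (0.209), *Irf8* to *Csf2ra* (0.282), *Cebpa* to *Galnt6* (0.172), *Ikzf1* to *Ptafr* (0.374) and *Maf* to *Tlr2* (0.114) and *Apoe* (0.146). *Runx1*, by contrast, was closest to *Myadm* (0.150) and to *Vcl* and *Palld*, which encode actin-associated proteins, and *Mef2c* to *Cacna2d1* (0.197).

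In retina the closest genes were *Ms4a6d* (0.991) for *Spi1*, *P2ry13* (0.677) for *Ikzf1*, *Ifi30* (0.375) for *Irf8*, *Gsdmd* (0.824) for *Irf5* and *Tifab* (0.356) for *Cebpa*. *Runx1* there was closest to *Tgfbr2* (0.540), which itself had 195 normalized counts without and 118 with PLX. *Maf* was closest to *Ado* (0.0900) and *Mef2c* to *Rabgap1l* (0.116). The RMS of a gene about its own mean in retina was 2.44 for *Spi1* and 2.42 for *Ikzf1*, but 0.119 for *Maf* and 0.340 for *Mef2c*. RMS differences therefore cannot be ranked across genes.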

How the data were processed

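RNA of 40 libraries, retina and choroid of 20 mice, was analysed. The authors checked reads with FastQC 0.11.5, used Salmon 1.10.1 (GRCm39) and tximport for reads per gene and DESeq2 1.36.0 for their normalization, and deposited this non-whole signal per gene (normalized counts). Both tissues had been scaled together: a median-of-ratios factor over 15800 genes above 0 throughout came to 1.0082 for each library. Whole reads could not be recovered, since 46.0% to 72.4% of low values fell within 0.1 of one, and count tests were left out. Depth is therefore approximate, and floors cover counting error alone.

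Symbols came from GENCODE release M39, a later release than the authors', and 53700 of 54307 identifiers matched. The test was limma 3.58.1 (R 4.3.3) on log2(normalized count + 1), a scale that understates changes of low genes, with a trend of variance on mean. It took genes averaging 1 or more, with the 4 groups of a tissue (or all 8) in 1 fit, called at a Benjamini-Hochberg adjusted p of 0.05 over all genes tested. Single genes were also compared by two-sided exact permutation tests of 5 against 5 mice, or of all 63504 relabellings within genotype or diet. Other steps ran in Python 3.11.15 (scipy 1.17.1, pandas 2.3.3).

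Samples were grouped by the tissue, genotype and diet of their labels, and the tissues of a mouse were paired by its number in the library names. The labels give no litter, batch or cage. The 8 genes and the gene lists were chosen with earlier results of these data known. Named are the 8 genes, their family members, in each list up to 3 called genes of lowest p per direction and tissue, and the 3 genes of closest pattern with a mean of at least 10. A few genes of these lists are counted but not reported here by name. Other list members that are named were chosen after their values were seen. Alternatives were pseudocounts of 0.5 and 5, other minimum means and scalings, robust moderation, covariates (a score of sex genes or of neural retina markers), the mouse as a block, and leaving out each mouse. The authors' covariates (sex and neuronal percentage) were not used here.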

Additional observations from a re-analysis of the deposited data

Results flagged for a closer look

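In 9 of 64 gene and group combinations, 1 of the 5 mice lay far from the other 4, with a gap of more than 0.71 of the whole range. For normally distributed values, chance gives such a gap in about 1 in 20 independent groups. The counts were not transformed here, and their distribution was not tested. The groups also share mice, and 3 of the 9 are groups in which all other values were 0, so the count is a description. *Spi1* in Tgfbr2ΔEC – PLX retinas had a gap of 0.743, with mouse 6 at 102.1 normalized counts and the others at 24.12 to 44.19. *Runx1* in control – PLX retinas had a gap of 0.722 (mouse 1 at 81.19, others 27.72 to 42.57), and *Ikzf1* there a gap of 0.736 (mouse 5 at 137.2, others 16.43 to 48.34). *Irf5* in Tgfbr2ΔEC + PLX retinas had a gap of 0.719, with mouse 16 at 62.66 and the others at 4.867 to 21.08.

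Under PLX 3 gaps were equal to the whole range, 1, because the other 4 retinas were at 0. These were *Spi1* in Tgfbr2ΔEC mouse 17 (6.3 normalized counts), *Ikzf1* in the same mouse (2.136, under its floor of 3.3) and *Ikzf1* in control mouse 15 (4.535). In choroid both gaps were in Tgfbr2ΔEC + PLX mouse 18. *Ikzf1* was high there, at 352.6 against 95.56 to 169.7 (gap 0.711), and *Maf* low, at 1377 against 1512 to 1558 (gap 0.743).

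The PLX effect differed between the tissues for *Maf* (choroid minus retina -0.713 on the log2 scale) and for *Ikzf1* (2.843), by the limma test of that difference in the joint fit.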

How the results depend on the processing

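Of 3247 recomputed values of single genes, 3228 kept their direction where called and their side of the threshold, 8 lost the call, 11 gained it and 0 reversed. The numbers of the 8 genes called were as reported under each alternative that gave a value, except as follows. For the PLX effect of choroid minus retina 2 genes were called, 1 with a pseudocount of 5 (*Ikzf1* lost), 3 with a pseudocount of 0.5 and 3 with the mouse as replicate block (*Spi1* gained), and 2 to 3 on leaving out each mouse. The block changed no other call, and 7 genes stayed higher in choroid with it. For PLX in control retinas 2 genes were called, and 1 to 4 on leaving out each mouse (1 without mouse 1 or 5, 4 without mouse 4). Over both genotypes in retina it was 4 to 5. In Tgfbr2ΔEC choroids 5 in place of 6 were called with the neural retina score as covariate (*Ikzf1*, adjusted p = 0.0559). Over all genes, the calls went from 958 to 506 there, from 1 to 2 for genotype without PLX and from 1 to 0 for genotype with PLX. A minimum mean of 10 took the calls of PLX in retina from 171 to 104 in controls and from 254 to 154 over both genotypes, and those of genotype in choroid from 1 to 0 in each diet. With the 10 libraries of a comparison fitted alone, calls in choroid went from 885 to 572 for PLX in controls, from 958 to 1381 for PLX in Tgfbr2ΔEC mice, and for genotype from 1 to 303 in the – PLX diet and from 1 to 0 in the + PLX diet, the last also with a pseudocount of 5 or the sex score as covariate. The cause was not tested. The pairing of tissues rests on the mouse number: the sex score had the same sign in both tissues of 20 of 20 mice, and the correlation of their deviations ran from -0.197 to 0.354, over 0.1 in 14. Depth limits *Spi1* and *Ikzf1* in PLX retinas, of which 7 and 9 of 10 were at or under 3 reads.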
